A study of Mus musculus with 13 samples.

Results

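Erg, Fli1, Ets1, Ets2, Elk3 and Tal1 are genes for transcription factors of endothelial and blood cells, the first 5 of the ETS family and Tal1 of the basic helix-loop-helix family. These 6 genes were followed through all non-control probes that carry one of the symbols, by the RefSeq accession of the probe or by the symbol in its description. That gave 8 of 41174 probes on the array, 2 each for Erg and Elk3 and 1 each for the other genes. All 8 passed the filter on dim probes, and the brightest probe of a gene stood for it among the 32027 genes tested. Of these 32027, 16327 had a gene symbol and the others are counted under the sequence name of their probe. Shares of all genes below are over all 32027. Another 4 probes carry the product name of Ets1 or Fli1 without a symbol. They were kept apart from the 8 and were added after the data were seen.

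RNA of mouse retina was measured on 13 arrays with 2 colours, from samples labelled as tip (n = 6), stalk (n = 4) and a retina control without vasculature, called nonvascular retina here (n = 3). Tip cells are the leading cells of a vessel sprout, with stalk cells behind, and the study asked which genes set retinal tip cells apart. Every array held the sample in red and Universal Mouse Reference RNA, a commercial pool, in green, with no dye swap. The labels give no strain, genotype, age or treatment, do not say how tip and stalk were separated and do not tie samples to animals, so p-values measure the spread between these samples, which may be technical. A level below is the log2 ratio of sample over reference, and a difference is between group means of that ratio. A gene was called where limma's test gave an adjusted p under 0.05 over all 32027 genes.

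ETS proteins bind DNA through a winged helix-turn-helix domain that reads a GGAA core, and nearly all known endothelial enhancers hold such cores. Erg and Fli1 are close relatives that keep endothelial cells in their identity, Ets1 and Ets2 are activated through MAP kinase signalling, and Elk3 is a ternary complex factor that works with serum response factor and can repress its targets. Tal1 binds E-boxes as a dimer with E proteins, in a complex with Lmo2, Ldb1 and GATA factors, and is needed for blood formation and, in mouse embryos, for the remodelling of yolk sac vessels.

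Most of 10 endothelial markers were higher in both vascular groups than in nonvascular retina. Cdh5, the cadherin of endothelial junctions, averaged 4.08 ± 0.33 in tip (SD, n = 6), 4.21 ± 0.17 in stalk (SD, n = 4) and 0.45 ± 0.20 in nonvascular retina (SD, n = 3). The probe of the junction gene Pecam1 gave 0.11 ± 0.11 in tip, −0.04 ± 0.13 in stalk and −0.16 ± 0.08 in nonvascular retina, with a difference of 0.27 ± 0.08 for tip minus nonvascular retina (SE, adjusted p = 0.0179). Of the others, picked out after their values were seen, the VEGF receptor gene Kdr averaged 4.25 ± 0.18 in tip, 4.91 ± 0.13 in stalk and 3.36 ± 0.73 in nonvascular retina, and the angiopoietin receptor gene Tek averaged 0.18 ± 0.14 in tip, 0.44 ± 0.28 in stalk and 0.20 ± 0.02 in nonvascular retina. The mean log2 ratio of the 10 endothelial markers was 2.74 to 3.03 on tip arrays, 3.14 to 3.32 on stalk arrays and 0.43 to 0.74 on nonvascular arrays. All 10 were well above background on every nonvascular array too. Per array, the median red signal above background ran from 105 to 292 on tip arrays, 98.1 to 141 on stalk arrays and 166 to 282 on nonvascular arrays. All arrays were on slides of their own, and only tip replicate 5 was scanned on another day.

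Fli1 was the one gene of the 6 that was called between tip and stalk. Its log2 ratio was 0.78, 0.48, 0.07, 0.75, 0.70 and 0.38 in tip, against 1.67, 1.52, 1.91 and 1.57 in stalk and −0.83, −0.80 and −0.90 in nonvascular retina. The 3 groups did not overlap: every tip array lay below every stalk array and above every nonvascular array. The mean was 0.53 ± 0.27 in tip (SD, n = 6), against 1.67 ± 0.17 in stalk (SD, n = 4), a difference of −1.14 ± 0.13 (SE), or 2.21-fold lower in tip (adjusted p = 0.000586). Called lower in tip were thus 1 of 6 genes, where 1.31% of all genes tested were, and called higher were 0 of 6, where 1.47% were. Fli1 was also the one whose tip and stalk arrays did not overlap, as for 2.74% of genes in that direction. In that comparison 5781 genes (18.1%) had an unadjusted p under 0.05, Fli1, Ets2, Elk3 and Tal1 among them. In bulk RNA of this kind, fewer cells of a type and less RNA per cell cannot be told apart.

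A cDNA clone probe with the Fli1 product name, A_52_P821, gave the same order. Its level was 1.04 to 1.48 in tip, against 2.39 to 2.78 in stalk and −1.52 to −1.13 in nonvascular retina. Tip minus stalk was −1.28 ± 0.11 (SE, adjusted p = 6.28e-05 over all 39354 probes that passed the filter, of which 1.15% were called lower). Fli1 itself exceeded nonvascular retina by 1.37 ± 0.14 in tip (SE, adjusted p = 8.63e-06) and by 2.51 ± 0.15 in stalk (SE, adjusted p = 9.85e-08), a 2.59-fold and a 5.71-fold difference.

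Of the 10 endothelial markers, 2 were called lower in tip than in stalk and none higher, beside shares of 1.31% and 1.47% of all genes. Tie1 and Pecam1 were not called and stood at 0.10 and 0.15 for tip minus stalk. For the 10 together, no array of tip reached the lowest stalk value of their mean. Their summed red signal was 29330 to 135725 in tip, 51864 to 61172 in stalk and 4379 to 11062 in nonvascular retina, and none of the 10 was at background in any group. Of 10 pericyte markers, 8 were called lower in tip, and their mean log2 ratio was 1.13 to 1.49 in tip, 1.99 to 2.17 in stalk and −0.69 to −0.52 in nonvascular retina. Their summed red signal was 14201 to 51476 in tip, 32246 to 34710 in stalk and 3928 to 5986 in nonvascular retina. The part of pericytes in the difference of Fli1 was not tested. Taken relative to the mean of the 10 endothelial markers on each array, which moves the median of all genes by 0.34 for tip minus stalk, the difference of Fli1 was −0.81 (adjusted p = 0.000908). Fli1 is also active in megakaryocytes and lymphocytes. Of 5 platelet markers and of 7 lymphocyte markers, none was called in either direction between tip and stalk. With 1.31% of all genes called lower and 1.47% higher, so few markers would rarely hold a call. The part of these cells in the difference of Fli1 was not tested.

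**Figure D1:**
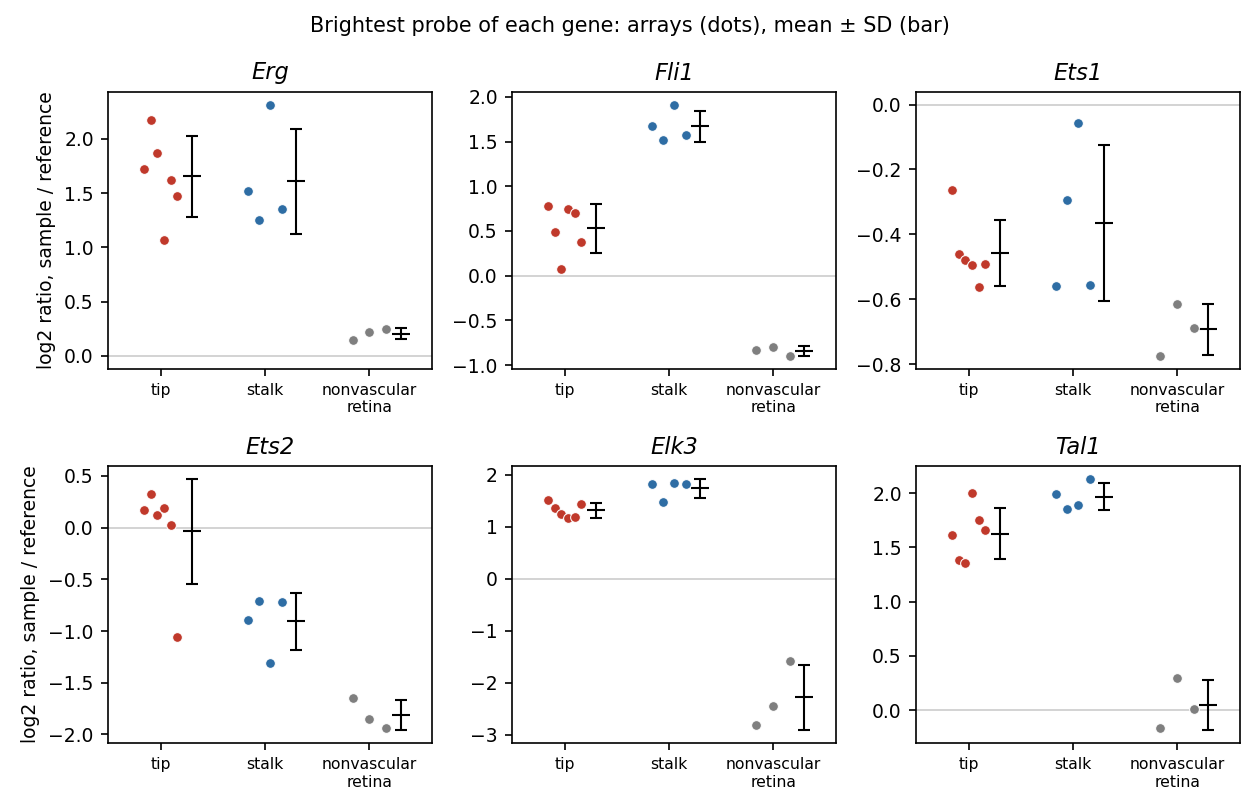
Log2 ratio of sample over reference for the brightest probe of each gene on every array (dots) in tip (n = 6), stalk (n = 4) and nonvascular retina (n = 3), with mean ± SD as bars; the vertical scale differs between panels. Fli1 shows 3 separate groups, and tip replicate 6 of Ets2 stands at −1.06 among the stalk arrays.

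Erg, the closest relative of Fli1, did not show that difference. On its brighter probe, A_52_P499821, which carries the symbol in its description, the level was 1.73, 2.17, 1.87, 1.07, 1.62 and 1.47 in tip, against 1.52, 1.25, 2.32 and 1.35 in stalk and 0.15, 0.22 and 0.25 in nonvascular retina. Tip and stalk arrays overlapped over nearly their whole range, and both lay above every nonvascular array. Tip minus stalk was 0.05 ± 0.22 (SE, adjusted p = 0.937), with a 95% interval of −0.43 to 0.52, and its sign turned with the Feature Extraction log ratio (−0.51) and without stalk replicate 2, stalk replicate 4 or tip replicate 2 (−0.07, −0.04 and −0.06). Erg exceeded nonvascular retina by 1.45 ± 0.24 in tip (SE, adjusted p = 0.000453) and by 1.41 ± 0.26 in stalk (SE, adjusted p = 0.001). The probe was dim in nonvascular retina, with a red signal over background of 29 to 55, and the size differed between settings: tip minus nonvascular retina was 0.79 to 3.13 over the 24 alternatives and was called in all of them.

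The second probe of Erg, A_51_P418519, stayed close to background in every group. Its red signal over background was 18 to 111 in tip, 24 to 31 in stalk and 25 to 59 in nonvascular retina, and it was not well above background on 1 tip array and 1 stalk array. Its level of −0.01 to 0.43 in tip, −0.04 to 0.08 in stalk and 0.07 to 0.10 in nonvascular retina differed by 0.13 ± 0.09 for tip minus nonvascular retina (SE, adjusted p = 0.338). With median centring that difference was 0.35 and was called (adjusted p = 0.0386). In the other settings run on both, the 2 probes of Erg gave different calls for tip minus nonvascular retina.

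Ets1 was measured by 1 dim probe, A_51_P329043, and its differences were small. The level was −0.26, −0.46, −0.48, −0.49, −0.56 and −0.49 in tip, against −0.56, −0.29, −0.06 and −0.56 in stalk and −0.77, −0.62 and −0.69 in nonvascular retina, at a red signal over background of 46 to 148 on the 13 arrays. Both vascular groups lay above all nonvascular arrays, and the tip arrays lay within the range of stalk apart from replicate 5, at −0.562 just under the lowest stalk array at −0.559. Stalk minus nonvascular retina was 0.33 ± 0.11 (SE, adjusted p = 0.0429), a call that was lost in 14 of 24 alternatives. Tip minus nonvascular retina was 0.23 ± 0.10 (SE, adjusted p = 0.118), and tip minus stalk was −0.09 ± 0.09 (SE, adjusted p = 0.659, 95% interval −0.30 to 0.11).

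The 3 probes with the Ets1 product name, all named for the same cDNA clone, gave larger differences than this probe and disagreed with one another. A_52_P194250 stood at 0.49 to 1.25 in tip, against 0.72 to 1.69 in stalk and −2.19 to −1.59 in nonvascular retina, a difference of 2.85 ± 0.21 for tip and of 3.00 ± 0.23 for stalk over nonvascular retina (SE, adjusted p = 5.85e-07 and 6.94e-07). A_52_P232830 was dimmer and exceeded nonvascular retina by 0.45 ± 0.09 in tip and by 0.58 ± 0.10 in stalk (SE, adjusted p = 0.00212 and 0.000523). A_52_P258291 had a level of 0.51 to 1.08 in tip, against 1.36 to 2.13 in stalk and −0.50 to −0.31 in nonvascular retina. It was the one of the 3 that was called between tip and stalk, with −0.91 ± 0.14 (SE, adjusted p = 0.00631; −0.73 once array brightness was modelled, adjusted p = 0.0748), while the others differed by −0.14 and −0.13 (adjusted p = 0.757 and 0.454). All 3 placed both vascular groups above nonvascular retina, a call made higher for 10.8% of probes in tip and 10.7% in stalk.

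**Figure D2:**
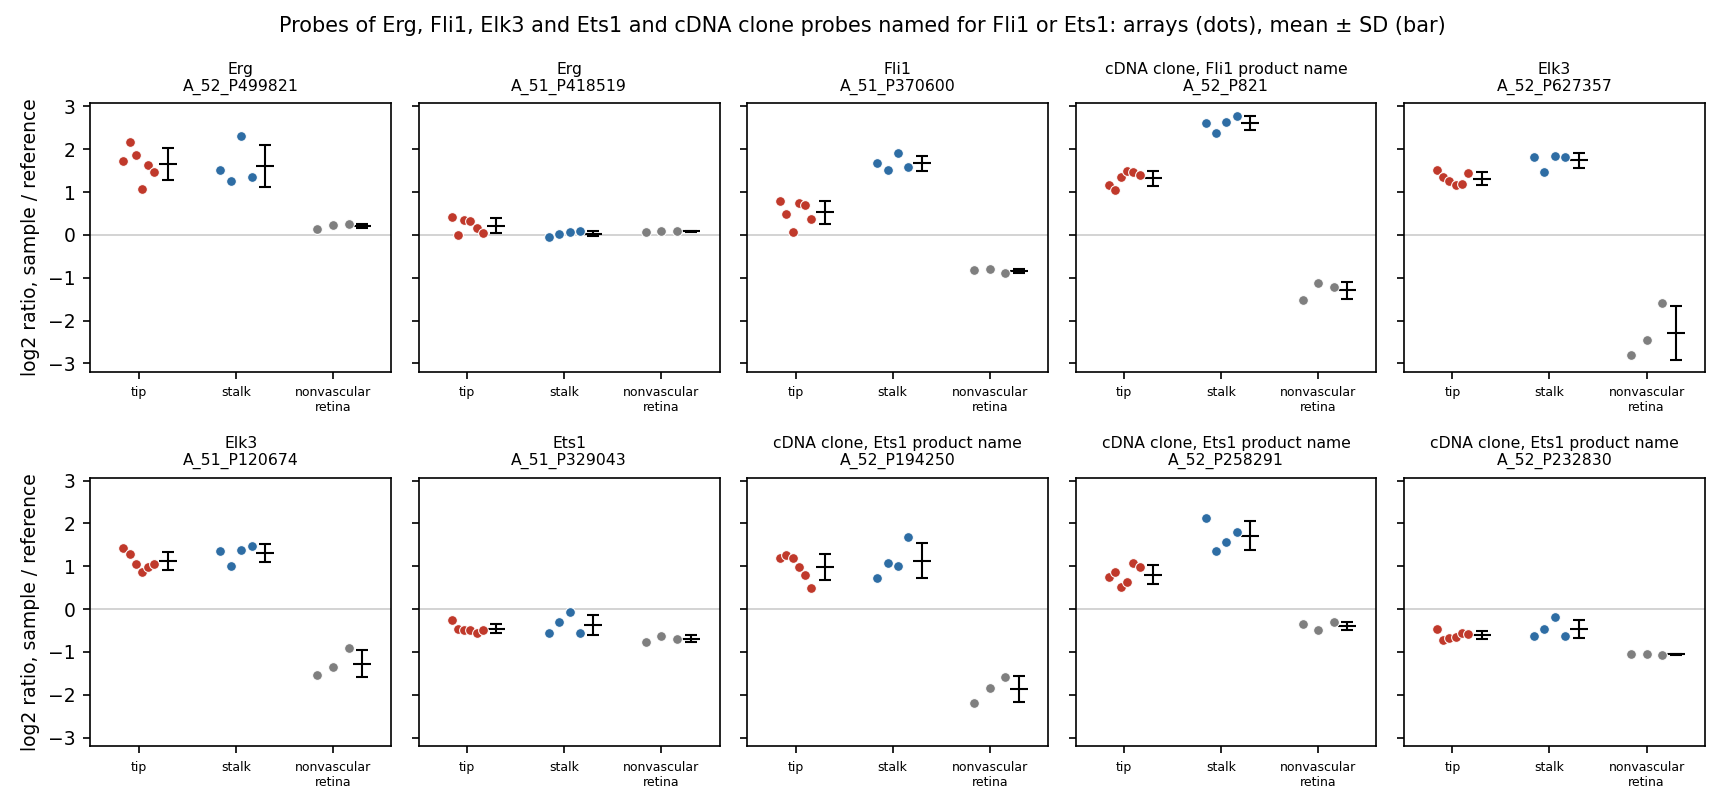
Log2 ratio of sample over reference on every array (dots, with mean ± SD as bars) for each probe of Erg, Fli1, Elk3 and Ets1 and for the 4 cDNA clone probes with the Fli1 or Ets1 product name, in tip (n = 6), stalk (n = 4) and nonvascular retina (n = 3). Erg probe A_51_P418519 lies near 0 in all groups, and both Fli1 panels show tip between stalk and nonvascular retina.

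Ets2 had its highest mean in tip, and its difference between tip and stalk missed the threshold. Its level was 0.17, 0.32, 0.12, 0.19, 0.02 and −1.06 in tip, against −0.89, −0.71, −1.30 and −0.72 in stalk and −1.65, −1.85 and −1.94 in nonvascular retina. In tip, 5 of 6 arrays lay above every stalk array, and replicate 6 lay among the stalk arrays. Tip minus stalk was 0.87 ± 0.23 (SE), 1.83-fold, with a 95% interval of 0.37 to 1.37, and was not called (adjusted p = 0.0679). Without tip replicate 6 the difference was 1.07 and was called (adjusted p = 0.000733). That array had the lowest median red signal over background of the tip arrays, 105. Tip replicate 5 was nearly as dim, at 114, with Ets2 at 0.02, and the stalk arrays ran from 98.1 to 141. Most tip arrays were brighter than the stalk arrays, so brightness and group cannot be fully told apart. With array brightness in the model the difference of tip minus stalk was 0.50 (adjusted p = 0.495). Relative to the mean of the 10 endothelial markers the difference was 1.21 (adjusted p = 0.00133). That scaling raises the median of all genes for tip minus stalk from 0.003 to 0.34, and so raises Ets2 too. Over nonvascular retina Ets2 was called in tip, by 1.78 ± 0.25 (SE, 3.42-fold, adjusted p = 0.000138), and in stalk, by 0.91 ± 0.27 (SE, 1.87-fold, adjusted p = 0.0234). The stalk call was lost in 5 of 24 alternatives, with adjusted p up to 0.1.

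On the probes that stood for the 6 genes, Elk3 had the largest difference from nonvascular retina. Its brighter probe, A_52_P627357, stood at 1.52, 1.35, 1.25, 1.16, 1.18 and 1.43 in tip, against 1.82, 1.47, 1.84 and 1.82 in stalk and −2.81, −2.45 and −1.58 in nonvascular retina. Tip exceeded nonvascular retina by 3.60 ± 0.20 (SE), 12.1-fold (adjusted p = 5.98e-08), and stalk did by 4.02 ± 0.22 (SE), 16.2-fold (adjusted p = 4.32e-08). By size of the difference Elk3 was number 36 of 32027 genes for tip and number 28 for stalk. Its other probe, A_51_P120674, gave 2.39 ± 0.15 for tip and 2.57 ± 0.17 for stalk over nonvascular retina (SE, adjusted p = 1.61e-07 and 1.59e-07). Tip minus stalk was −0.42 ± 0.19 on the brighter probe (SE, adjusted p = 0.252), where 1 tip array lay above the lowest stalk array. On the other probe it was −0.19 ± 0.14 (SE, adjusted p = 0.539), and 4 tip arrays did. On the brighter probe that difference was called with only the 2 groups in the fit (adjusted p = 0.0464) and without nonvascular replicate 3 (0.0495), whose level was −1.58, against −2.81 and −2.45 on the other nonvascular arrays.

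Tal1 was high in both vascular groups. Its level was 1.62, 1.39, 1.35, 2.00, 1.75 and 1.66 in tip, against 1.99, 1.86, 1.89 and 2.13 in stalk and −0.16, 0.30 and 0.01 in nonvascular retina. Among tip arrays, replicate 4 lay within the stalk range and the other 5 below it. Tip exceeded nonvascular retina by 1.58 ± 0.14 (SE), 2.99-fold (adjusted p = 1.93e-06), and stalk did by 1.92 ± 0.15 (SE), 3.78-fold (adjusted p = 6.77e-07). Tip minus stalk was −0.34 ± 0.13 (SE, adjusted p = 0.172), with a 95% interval of −0.61 to −0.07. Relative to the mean of the 10 endothelial markers, which raises the median of all genes to 0.34, it was −0.004 (adjusted p = 0.978). Tal1 is also a gene of red cell precursors. The mean log2 ratio of 5 erythroid markers was 1.27 to 2.05 in tip, 1.08 to 1.42 in stalk and 0.38 to 0.62 in nonvascular retina, with 3 of 5 called higher in tip and 2 of 5 in stalk than in nonvascular retina, and their part in the level of Tal1 was not tested.

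Against nonvascular retina, 5 of the 6 genes were called higher in tip, where 11.1% of all genes tested were, and all 6 were called higher in stalk, where 11.2% were. None was called lower, where 16.8% of genes were in tip and 18.6% in stalk. The arrays of all 6 genes did not overlap between tip and nonvascular retina, as for 11% of genes in that direction, nor between stalk and nonvascular retina, as for 16%. Both comparisons use the same 3 nonvascular arrays. Microglial markers went the other way: 7 of 12 were called lower in tip than in nonvascular retina and none higher, and their mean log2 ratio was −0.12 to 0.30 in tip, 0.05 to 0.35 in stalk and 0.66 to 1.03 in nonvascular retina.

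**Figure D3:**
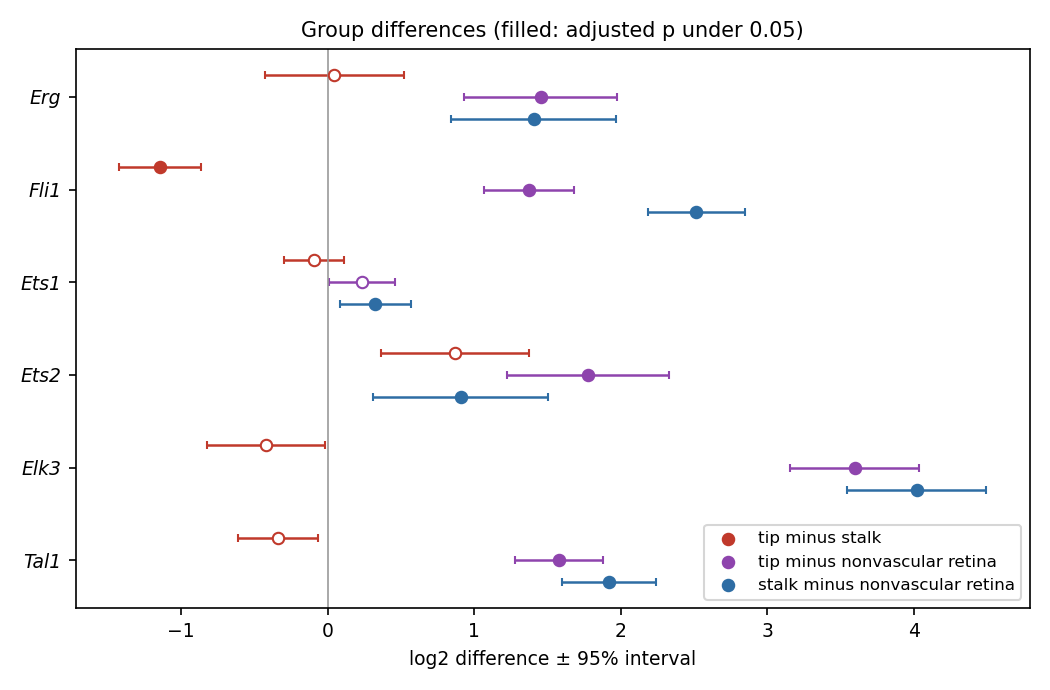
Log2 difference between groups for each gene (brightest probe) with its 95% interval, for the 3 pairs of groups; filled points have an adjusted p under 0.05. For tip minus stalk, Fli1 at −1.14 is filled and Ets2 at 0.87 is not.

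RefSeq promoter windows (GRCm38.p6, from 250 bases before to 50 after a start) were at hand for 4 of the 6 genes, with 3 starts for Erg, 2 for Tal1 and 1 each for Elk3 and Ets2. The window with the most GGAA cores of each gene is shown, the more upstream one in a tie, because that core is what ETS proteins read. Capitals mark GGAA, or TTCC where the core lies on the other strand.
Erg, chr16:95530316-95530615, minus strand: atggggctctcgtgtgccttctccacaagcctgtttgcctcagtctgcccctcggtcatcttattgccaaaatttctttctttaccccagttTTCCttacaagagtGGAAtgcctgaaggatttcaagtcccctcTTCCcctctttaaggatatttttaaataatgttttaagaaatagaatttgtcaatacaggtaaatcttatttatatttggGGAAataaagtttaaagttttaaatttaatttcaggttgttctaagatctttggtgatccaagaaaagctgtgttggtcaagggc
Tal1, chr4:115056176-115056475, plus strand: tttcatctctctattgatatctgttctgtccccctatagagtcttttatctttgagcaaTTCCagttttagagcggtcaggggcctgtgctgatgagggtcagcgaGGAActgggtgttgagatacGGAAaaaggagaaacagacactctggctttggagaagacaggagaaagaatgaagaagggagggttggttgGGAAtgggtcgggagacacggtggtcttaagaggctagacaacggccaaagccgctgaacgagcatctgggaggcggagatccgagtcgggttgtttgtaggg
Elk3, chr10:93311110-93311409, minus strand: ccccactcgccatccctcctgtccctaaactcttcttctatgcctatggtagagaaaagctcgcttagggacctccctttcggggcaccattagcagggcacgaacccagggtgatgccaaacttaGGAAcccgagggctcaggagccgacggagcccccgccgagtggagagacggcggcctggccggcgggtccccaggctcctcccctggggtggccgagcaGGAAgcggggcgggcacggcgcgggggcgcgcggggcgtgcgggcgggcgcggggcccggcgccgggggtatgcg
Ets2, chr16:95702157-95702456, plus strand: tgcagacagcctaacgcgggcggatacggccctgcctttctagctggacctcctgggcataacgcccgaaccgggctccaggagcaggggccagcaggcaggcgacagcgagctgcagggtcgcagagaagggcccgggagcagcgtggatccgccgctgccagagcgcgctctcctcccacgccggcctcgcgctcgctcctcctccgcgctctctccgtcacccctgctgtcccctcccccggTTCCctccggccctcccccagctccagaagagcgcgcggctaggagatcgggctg

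The core is short and common. At least 1 match on either strand was in 96.0% of 32851 promoter windows of this length, with a median of 3, and Erg and Tal1 had 4 in the windows shown, Elk3 2 and Ets2 1. As many as 4 were in 46.3% of all windows. The longer ETS site CCGGAA, present on either strand in 14.9% of windows and holding the core, was in no window of the 4 genes. The GATA site AGATAA, found on either strand in 11.2% of windows, was in the Tal1 window shown and in the third Erg window. The E-box CANNTG, a palindrome apart from its middle bases, which was in 72.3% of windows, was also in these 2. Such matches describe the letters of these windows, and their part in the levels of these genes was not tested. By RefSeq gene order, Fli1 and Ets1 are neighbours on chromosome 9 and Erg and Ets2 are neighbours on chromosome 16, with 0 protein-coding genes between the members of either pair. For tip minus stalk, the neighbours Fli1 and Ets1 stood at −1.14 and −0.09, and the neighbours Erg and Ets2 at 0.05 and 0.87.

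In the rest of the ETS family no gene was called between tip and stalk. Of 21 other ETS genes, 20 were tested, and between tip and stalk 0 were called in either direction, with a median difference of −0.01 against 0.003 over all genes. Against nonvascular retina 8 of 20 were called higher in tip and 3 of 20 in stalk, beside 11.1% and 11.2% of all genes. None was called lower, beside 16.8% and 18.6%, and the medians were 0.13 and 0.09. Erf, a repressor of the family, led them: it averaged 1.58 ± 0.20 in tip (SD, n = 6), 1.60 ± 0.18 in stalk (SD, n = 4) and −0.50 ± 0.71 in nonvascular retina (SD, n = 3), a difference of 2.08 ± 0.23 for tip and of 2.09 ± 0.25 for stalk (SE, adjusted p = 1.73e-05 and 2.93e-05). Etv1, a factor of the PEA3 group, was higher by 1.05 ± 0.19 in tip and 0.64 ± 0.21 in stalk (SE, adjusted p = 0.000912 and 0.0317), the stalk call being lost in 10 of 23 alternatives. Its relative Etv4 was higher in tip by 0.66 ± 0.16 (SE, adjusted p = 0.00816, lost in 2 of 23 alternatives). Gabpa, a regulator of mitochondrial genes, was higher in stalk by 0.89 ± 0.25 (SE, adjusted p = 0.015, lost in 2 of 23). It was called higher in tip as well, by 0.73 ± 0.23 (SE, adjusted p = 0.0307). Spic, known from macrophages, was higher in tip by 0.26 ± 0.07 (SE, adjusted p = 0.0107, lost in 5 of 23).

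Among 18 genes of the Tal1 complex and of related helix-loop-helix factors, 3 were called lower in tip than in stalk and 0 higher, beside 1.31% and 1.47% of all genes, with a median difference of 0.04. Lyl1, the closest relative of Tal1, averaged −0.22 ± 0.15 in tip (SD, n = 6), against 1.21 ± 0.36 in stalk (SD, n = 4) and −0.49 ± 0.29 in nonvascular retina (SD, n = 3). Its difference of −1.44 ± 0.15 for tip minus stalk (SE, adjusted p = 0.000372) stood beside −1.14 for Fli1. Gata2, a GATA factor that joins the complex, averaged 0.81 ± 0.15 in tip, against 1.67 ± 0.05 in stalk and −1.10 ± 0.10 in nonvascular retina, and tip minus stalk was −0.86 ± 0.07 (SE, adjusted p = 7.35e-05). Cbfa2t3, a corepressor of the complex, averaged 1.13 ± 0.34 in tip, against 2.25 ± 0.21 in stalk and 1.504 ± 0.18 in nonvascular retina, and tip minus stalk was −1.12 ± 0.16 (SE, adjusted p = 0.00321). All 3 were called under each of the 24 alternatives tried, and relative to the mean of the 10 endothelial markers their differences were −1.10, −0.52 and −0.79. Of 10 pericyte markers, 8 were called lower in tip as well, and the part of pericytes in these differences was not tested.

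**Figure D4:**
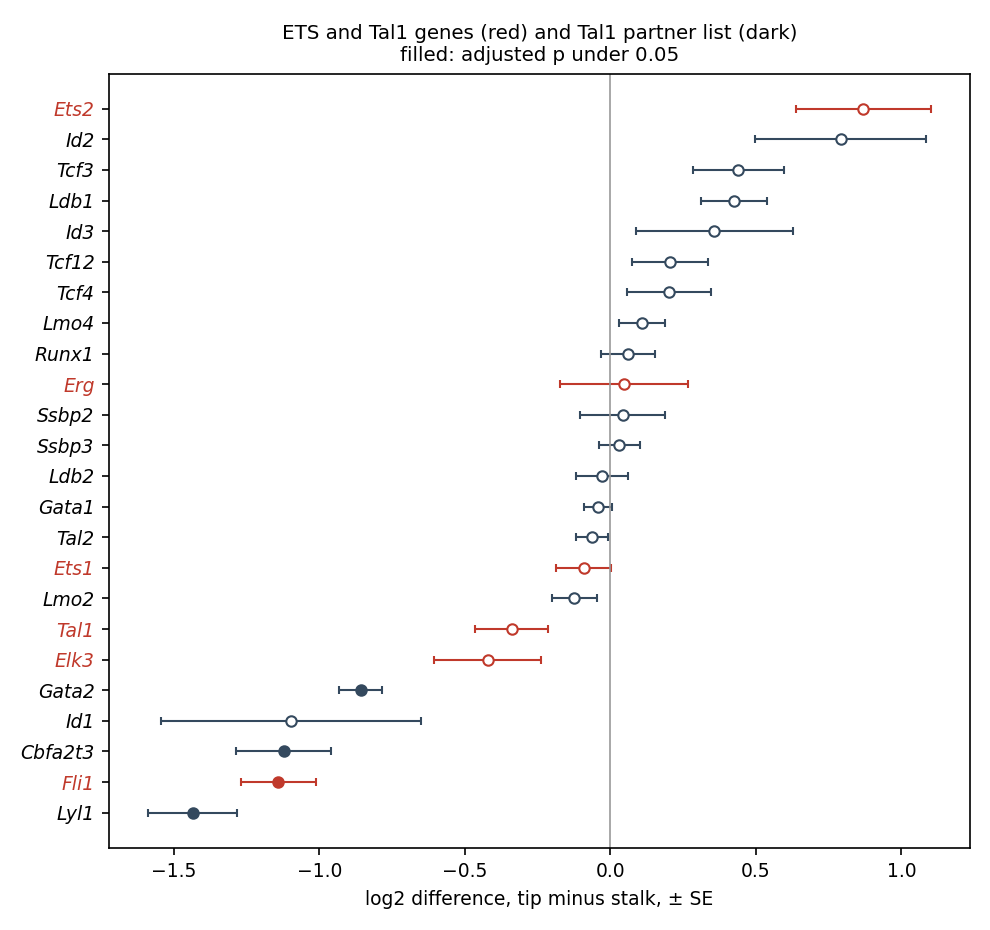
Log2 difference of tip minus stalk (point, with SE as bar) for the 6 ETS and Tal1 genes (red) and the 18 genes of the Tal1 partner list (dark); filled points have an adjusted p under 0.05. Fli1, Lyl1, Cbfa2t3 and Gata2 are filled and lie below 0.

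Against nonvascular retina, 7 of the 18 were called higher and 3 lower in tip, and 9 higher and 3 lower in stalk, with medians of 0.18 and 0.54. Of all genes 11.1% were higher and 16.8% lower in tip, and 11.2% higher and 18.6% lower in stalk, so the counts of lower genes were near the share over all genes. The E proteins that pair with Tal1 were among those higher in both: Tcf4 by 1.77 ± 0.16 in tip and 1.56 ± 0.17 in stalk (SE, adjusted p = 2.58e-06 and 1.39e-05). Tcf3 was higher in tip by 1.46 ± 0.17 and Tcf12 by 1.01 ± 0.14 (SE, adjusted p = 2.62e-05 and 0.000125). Tcf3 averaged 0.42 ± 0.30 in stalk and −0.60 ± 0.30 in nonvascular retina, and Tcf12 averaged −0.05 ± 0.13 and −0.86 ± 0.28 (SD). Gata2 was higher by 1.91 ± 0.08 in tip and 2.77 ± 0.09 in stalk (SE, adjusted p = 6.79e-09 and 5.28e-10), and Lyl1 by 1.70 ± 0.18 in stalk (SE, adjusted p = 1.12e-05). Id1, an inhibitor that binds E proteins, was higher in stalk by 3.71 ± 0.53 (SE, adjusted p = 0.000126). It was also called higher in tip, by 2.61 ± 0.49 (SE, adjusted p = 0.00118), and was not called between tip and stalk (adjusted p = 0.218). Its level in nonvascular retina was −3.14 ± 1.61 (SD, n = 3). The 3 that were lower in both were Ssbp3, Ssbp2 and Lmo4, in a list chosen to hold such members of the complex. The other Lmo and Ldb genes of the list were not called in tip. Among them, Lmo2 averaged −0.51 ± 0.14 in tip, −0.38 ± 0.12 in stalk and −0.70 ± 0.05 in nonvascular retina (SD). The difference of Ssbp3 was −0.98 ± 0.08 in tip and −1.02 ± 0.08 in stalk (SE, adjusted p = 8.21e-07 and 1.17e-06), that of Lmo4 −0.70 ± 0.09 and −0.81 ± 0.09 (SE, adjusted p = 4.46e-05 and 2.39e-05), and that of Ssbp2 −0.59 ± 0.16 and −0.63 ± 0.17 (SE, adjusted p = 0.0135 and 0.0133). Each call of Ssbp2 was lost in 3 of 23 alternatives, and with the mean of its probes both differences were −0.21 (adjusted p = 0.06 and 0.0818).

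Endothelial genes known to have ETS binding in their regulatory DNA were high in both vascular groups. Of 27 such genes 26 were tested: 23 were called higher and 1 lower in tip than in nonvascular retina, and 21 higher and 0 lower in stalk, with median differences of 2.64 and 2.90, beside the shares of all genes just given. All 10 endothelial markers are also in this list. Icam2, an adhesion molecule, was higher by 4.35 ± 0.13 in tip and 4.80 ± 0.14 in stalk, Flt1, the decoy receptor of VEGF, by 4.11 ± 0.12 and 5.05 ± 0.13, Sox7 by 3.92 ± 0.10 and 4.16 ± 0.11, and Egfl7, a matrix protein of vessels, by 2.91 ± 0.07 and 3.32 ± 0.07 (SE, adjusted p = 4.49e-10 or less for each). The gene called lower in tip was Flt4, a receptor of VEGF-C, with −0.15 ± 0.05 (SE, adjusted p = 0.0325), a call that was lost in 10 of 23 alternatives.

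Between tip and stalk the same list went both ways, with 5 of 26 called lower in tip, 2 higher (1.31% and 1.47% of all genes) and a median difference of −0.29. Lower were Sox17, an arterial transcription factor, with a difference of −1.44 ± 0.12 (SE, adjusted p = 4.66e-05), the tight junction gene Cldn5 with −1.16 ± 0.14 (0.000799), Flt1 with −0.94 ± 0.11 (0.000824) and Egfl7 with −0.41 ± 0.06 (0.00474). Egfl7 lost its call in 4 of 24 alternatives, 1 of them the scaling to the 10 endothelial markers, of which it is one (−0.07, adjusted p = 0.433). Higher in tip were the Notch ligand Dll4, by 0.41 ± 0.07 (SE, adjusted p = 0.00716, lost at 0.0904 once array brightness was modelled), and Vwf, which encodes von Willebrand factor, by 1.00 ± 0.23 (SE, adjusted p = 0.0428), a call that was lost in 15 of 24 alternatives.

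The genes whose log2 ratio followed that of a member most closely over the 13 arrays were found by Pearson correlation among 14746 genes with a symbol. These points fall into 3 groups and share the reference RNA, so r mainly reads the order of the groups, and no test was made. Fli1 was followed by Aplnr, the apelin receptor, at r = 0.981, by Angptl4 (0.976) and by Foxs1 (0.976), and after the group means were taken off r was 0.55, 0.46 and 0.43. Elk3 was followed by Cmtm3 (0.996), Scarf1 (0.996) and Igf2r (0.992), with 0.89, 0.92 and 0.82 after the group means were taken off. For Ets2 they were S100a16 (0.963), Sipa1 (0.961) and the laminin gene Lamb1 (0.960), and for Tal1 they were Ccdc85b (0.986), Tmem88 (0.985) and Actn4 (0.979). For Erg they were Lbr (0.956), Hebp1 (0.943) and Agfg1 (0.942), and for Ets1 Spop (0.921), Mrs2 (0.870) and Ttyh2 (0.867). No gene was named for more than 1 member.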

How the data were processed

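Arrays were scanned and quantified in Agilent Feature Extraction 8.5.1.1, per the file headers and the submitters' processing notes. The deposited files give the mean intensity and the median local background intensity of each spot and channel, neither normalized. The log10 ratio in the same deposited files compares processed red with processed green, per the file headers. In the deposited value table the values are linear ratios, red over green: for every array 99.9% or more of them matched the antilogged log10 ratio to within 0.001 (log10 scale), with medians of 1.06 to 1.15 and 631 to 1555 probes absent.

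Log2 ratios were computed from the deposited intensities in limma 3.58.1 under R 4.3.3, with files read by data.table (version 1.17.8): normexp background correction with offset 50, then loess within each array with control spots at weight 0. Spots with an outlier mark in the files were left out, and repeated spots of a probe were averaged. A gene was kept if its probe was well above background in red on 3 or more of the 13 arrays, and 85.0% to 95.4% of spots were so per array. The 13 arrays were fitted together with a mean for each of the 3 groups, tested with limma (moderated test) and adjusted per comparison after Benjamini and Hochberg. The number of arrays limits the precision.

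Symbols came from RefSeq (GRCm38.p6): 22064 probes matched by their own accession, 135 by another one and 859 by the symbol in their description, while 18116 kept the name in the files. No probe coordinates are given, because the files name no genome build.

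The 6 genes, the 13 gene lists, the tests and the alternatives were chosen with earlier results of these data known. Of these lists, 4 are pathway lists (other ETS genes, Tal1 partners, endothelial genes with ETS binding, ETS cofactors with kinases). The others are markers of endothelium, pericytes, microglia, red cells, lymphocytes, platelets, astrocytes, ganglion cells and photoreceptors. Named are all probes of the 6 genes, up to 4 called members per direction of each pathway list, the 3 genes most like each member, and Cdh5 and Pecam1. Alternatives changed the background correction, normalization, signal, channel, filter, probe rule, samples in the fit, replicate block and array brightness, or left out 1 array. The 4 clone probes and the scaling to endothelial markers were added after seeing the data. Samples with the same replicate number did not deviate together (correlations of −0.144 to 0.0821 over genes), so the numbers were not taken as pairs. The fits were tested on simulated data.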

Additional observations from a re-analysis of the deposited data

Results flagged for a closer look

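In groups of 4 to 10 arrays, the lowest or highest array was set apart where its gap to the nearest other array took up more of the group's range than Dixon's 95% limit allows. That was so in 3 of 24 groups (the 12 probes in tip and in stalk), while chance gives about 1 in 20. For Ets2 (A_52_P658122), tip replicate 6 stood at −1.06 and the other tip arrays at 0.02 to 0.32. For Elk3 (A_52_P627357), stalk replicate 2 stood at 1.47 and the other stalk arrays at 1.82 to 1.84. For Ets1 (A_51_P329043), tip replicate 1 stood at −0.262 and the other tip arrays at −0.562 to −0.461.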

How the results depend on the processing

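Fli1 remained called lower in tip than in stalk in all 25 alternatives (−1.44 to −0.81, adjusted p up to 0.0221), and Fli1, Ets2, Elk3, Tal1 and Erg remained called higher in tip than in nonvascular retina in all 24. The count of the 6 genes called lower in tip than in stalk was 2 with only the 2 groups compared and 1 to 2 when 1 array was left out. The count called higher was 1 with the replicate block, through Ets2 (1.11, adjusted p = 0.00623), and 0 to 1 when 1 array was left out. Against nonvascular retina 5 to 6 were higher in tip and 4 to 6 in stalk when 1 array was left out. The numbers do not pair the samples, and the block moved Ets1 for stalk minus nonvascular retina to an adjusted p of 0.0659. Signs turned for tip minus stalk of Erg (−0.51 with the Feature Extraction log ratio and with the deposited table; −0.0716, −0.039 and −0.0567 without stalk replicate 2, stalk replicate 4 or tip replicate 2, −0.0716 to 0.283 with 1 array left out) and of Ets1 (0.24 relative to endothelial markers, 0.0112 without stalk replicate 3, −0.156 to 0.0112 with 1 array left out). They also turned for clone probe A_52_P194250 (0.0283 with the block, 0.0415 without stalk replicate 4, −0.280 to 0.0415 with 1 array left out) and, for stalk minus nonvascular retina, for Erg probe A_51_P418519 (0.27 after median centring, 0.0291 for the red channel alone, 0.0913 with array brightness); none of these passed the test. The cause was not tested.

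Over all genes, median centring gave 49 higher in tip than in stalk and 203 lower, array brightness gave 77 and 148, and 299, 295 and 207 were higher with the Feature Extraction log ratio, the deposited table and the red channel alone, against 471 higher and 421 lower. Leaving out 1 array gave 187 to 1020 higher (1020 without tip replicate 6; 187, 200, 255 and 248 without stalk replicates 1 and 3 and tip replicates 2 and 3) and 258 to 583 lower. For tip over nonvascular retina 2186 were higher with median centring and 2698 to 3843 with 1 array left out.

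Of the endothelial genes with ETS binding, 1 was higher in tip than in stalk with median centring, the Feature Extraction log ratio, the deposited table, the red channel alone, only the 2 groups and the replicate block, and 0 with array brightness; 3 were lower with median centring. With 1 array left out 1 to 2 were higher and 5 to 7 lower, and 0 to 1 lower in tip than in nonvascular retina. That last count was 0 with median centring, the Feature Extraction log ratio, the deposited table, the red channel alone, only the 2 groups and the block. Of the other ETS genes, 4 were higher in tip than in nonvascular retina with median centring and 5 with the block, 5 were higher in stalk with the Feature Extraction log ratio, the deposited table and the mean of a gene's probes and 7 with the red channel alone, and 1 was higher in tip than in stalk with only the 2 groups. With 1 array left out these counts were 4 to 8, 2 to 5 and 0 to 1. Of the Tal1 partners 1 was higher in tip than in stalk with only the 2 groups and 0 to 1 with 1 array left out, with 3 to 4 lower; against nonvascular retina 7 to 8 higher and 2 to 3 lower in tip and 8 to 11 higher and 3 to 4 lower in stalk. Of the ETS cofactors, 0 were higher in tip than in stalk with no background subtraction, median centring, the Feature Extraction log ratio, the deposited table, the red channel alone, only the 2 groups or array brightness. Lower were 0 with median centring and with the block, and 1 with only the 2 groups and with array brightness. Against nonvascular retina 2 were higher in tip and 3 in stalk with median centring, 2 were lower in tip with the red channel alone, and 1 was lower in stalk with the Feature Extraction log ratio, the deposited table, the mean of probes and array brightness. With 1 array left out these counts were 0 to 1, 0 to 3, 3 to 4, 4 to 5, 0 to 1 and 1 to 2. A block for slide or scan day was not run: each array had its own slide and 1 array its own day, and without it (tip replicate 5) Fli1 kept its call. Dim signal limits Ets1 and the second Erg probe.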

Other observations

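Of 12 ETS cofactors and upstream kinases, tip had 1 called higher and 2 called lower than stalk, beside 1.47% and 1.31% of all genes. The median difference was −0.04. Hif1a, a subunit of the hypoxia-inducible factor that can act with ETS proteins, was higher in tip by 0.49 ± 0.12 (SE, adjusted p = 0.0444), a call that was lost in 17 of 24 alternatives. Foxc2, a forkhead factor that shares composite sites with ETS proteins, was lower in tip, with −0.89 ± 0.19 (SE, adjusted p = 0.0303, lost in 9 of 24), and Foxo1, a forkhead factor of quiescent endothelium, with −0.60 ± 0.14 (SE, adjusted p = 0.0448, lost in 14 of 24, the scaling to endothelial markers being 1 of the 24). Against nonvascular retina, Foxo1 was higher by 2.04 ± 0.16 in tip and 2.64 ± 0.17 in stalk, and Foxc2 by 1.46 ± 0.21 and 2.35 ± 0.23 (SE, adjusted p = 0.000143 or less for each). Srf, the serum response factor that Elk3 binds, was higher by 0.55 ± 0.09 in tip and 0.37 ± 0.09 in stalk (SE, adjusted p = 0.000326 and 0.00904). With median centring both calls were lost (0.35 and 0.18, adjusted p = 0.192 and 0.505), and the stalk call was also lost without nonvascular replicate 2. In all, 4 of 12 were called higher and 1 lower in tip than in nonvascular retina, and 5 higher and 2 lower in stalk, with medians of 0.20 and 0.14. Of all genes 11.1% were higher and 16.8% lower in tip, and 11.2% higher and 18.6% lower in stalk. The counts of lower genes did not exceed those shares.

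Over all genes, 11.1% were called higher and 16.8% lower in tip than in nonvascular retina, and 11.2% higher and 18.6% lower in stalk. Beside these shares, other marker lists gave these counts. Of 8 ganglion cell markers, 7 were called lower in tip and 6 in stalk than in nonvascular retina. Of 6 astrocyte markers, 3 were called higher in each. Their mean log2 ratio was 1.94 to 2.24 on tip arrays and 2.20 to 2.29 on stalk arrays. On nonvascular replicates 1, 2 and 3 it was 0.61, 0.65 and 1.85, so replicate 3 lay close to the vascular arrays. The part of astrocytes in the levels of the ETS and Tal1 genes was not tested. Of 8 photoreceptor markers, 3 were called lower in tip and 2 in stalk. Between tip and stalk none of these 3 lists had a called member, beside 1.47% of all genes called higher in tip and 1.31% lower. The median difference of tip minus stalk was 0.39 for ganglion cell markers, −0.09 for astrocyte markers and −0.01 for photoreceptor markers, against 0.003 over all genes. The part of these cells in the differences between tip and stalk was not tested.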
